A study of Gallus gallus with 4 samples.

Results

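The trunk of chick embryos with 4 somites (4S) was set against that of embryos with 10 somites (10S), in single-cell RNA sequencing data. Cells were taken when their name carried the prefix of either stage and they held at least 2500 unique molecular identifiers (UMIs, sequence tags that mark single captured RNA molecules). There were 4025 such cells at 4S and 8669 at 10S, together 12694 of the 27391 cells of all 4 stages in the series (4S, 7S, 10S and 13S), and the minimum removed no cell of either stage. Levels were given as CPM, the UMIs of a gene scaled to a total of 1000000 UMIs over the cells summed. They were taken over all cells of a stage and within 4 sets of cells gated on 1 gene each: at least 2 UMIs of MSGN1, at least 3 of MEOX1, at least 10 of CHRD or at least 1 of PAX6. The gates served to part shifts shared by several tissues from those of 1 tissue.

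The study mapped the progenitor populations from which the trunk tissues form. Its labels name no treatment, strain or genetic change at any stage, and the stages are told apart by somite number. Each stage was 1 sequencing library from at least 4 embryos pooled before their cells were separated, and the tissue was dissected from the third somite pair back to the tail end. The same dissection plane therefore took in more formed somites at 10S than at 4S. With 1 library per stage, no difference between the stages could be tested against a spread between replicates, and a gene is called higher or lower below by size alone, at 2-fold or more. All intervals are 95% exact Clopper-Pearson intervals, which cover counting error and neither the variation between embryos nor that between libraries. Those of ratios take each UMI as a separate draw, so they leave out the variation between cells too.

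The vertebrate trunk is laid down from head to tail. Progenitors around the node and primitive streak feed presomitic mesoderm, which is under FGF and WNT signals and carries the transcription factor MSGN1. This tissue segments into somites, which make retinoic acid and carry the homeobox factor MEOX1. The axial midline forms the notochord, a source of the BMP antagonist chordin (CHRD) and of Sonic hedgehog, and the overlying neural plate turns on PAX6 as it becomes neural tube. Hox genes lie in clusters and are switched on in the order of the cluster, so that cells added later to the axis carry genes of higher-numbered groups, and the set of Hox genes a cell expresses marks its place along the axis.

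The MSGN1 gate held 1110 cells at 4S, 27.6% of the stage (26.2 to 29.0), and 1723 cells at 10S, 19.9% (19.0 to 20.7). In the MEOX1 gate were 472 cells at 4S, 11.7% (10.7 to 12.8), against 1117 cells at 10S, 12.9% (12.2 to 13.6). In the CHRD gate were 208 cells at 4S, 5.17% (4.50 to 5.90), against 326 cells at 10S, 3.76% (3.37 to 4.18). The share of cells with PAX6 was low at 4S and more than 4 times as high at 10S, as the plot of gate shares shows. It took in 65 cells at 4S, 1.61% (1.25 to 2.05), against 636 cells at 10S, 7.34% (6.80 to 7.91). Cells were deeper at 4S, with a median of 8849 UMIs against 7182 at 10S, and a gate takes in more cells where they are deeper. With every cell thinned to 2500 UMIs the shares at 4S and 10S were 10.2% and 8.32% for MSGN1, 5.32% and 5.36% for MEOX1, 3.83% and 2.90% for CHRD, and 0.472% and 4.14% for PAX6, so that the MEOX1 shares then lay within each other's intervals and the other 3 kept their direction.

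**Figure D1:**
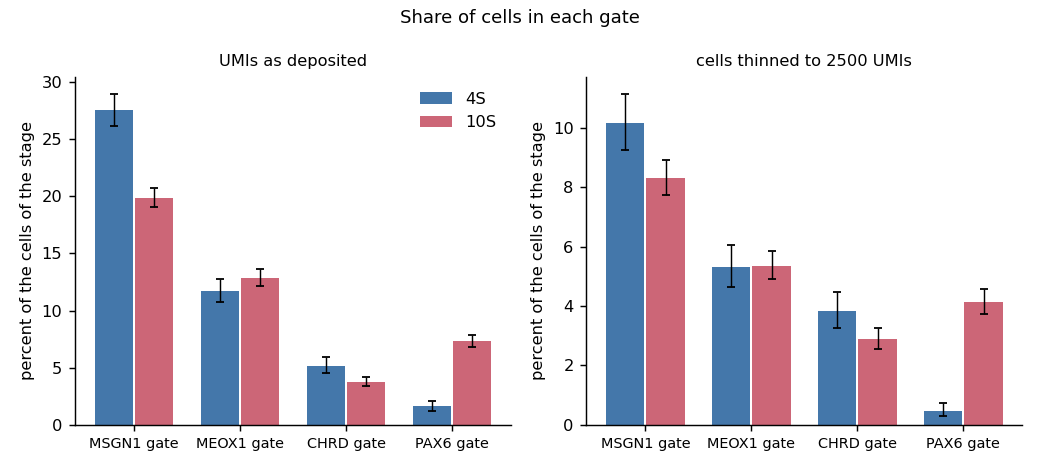
Share of the cells of each stage that passed each gate, in percent, for the 4S (blue bars) and 10S (red bars) libraries, with UMIs as deposited on the left and with every cell thinned to 2500 UMIs on the right, on separate y axes. Error bars are 95% exact Clopper-Pearson intervals and cover counting error only. On the left the PAX6 share stands at 1.61% at 4S and 7.34% at 10S, the MSGN1 share at 27.6% and 19.9%.

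The gates differed in how well their cells matched the tissue they were meant to catch. In the CHRD gate all 6 notochord markers looked for (NOTO, TBXT, SHH, FOXA2, NOG and LEFTY1) were above their level in all cells at both stages, and in the PAX6 gate all 7 neural tube markers were. The summed level of those 7 was 112 CPM at 4S and 281 CPM at 10S. Of the 9 surface ectoderm markers found, 7 were also above all cells in the PAX6 gate at 4S, and the 9 summed to 313 CPM. None of them was at 10S, where 5 of the 6 haemoglobin genes found and 4 of the 5 neural crest markers found were. In the MEOX1 gate 4 of the 6 somite markers found were above all cells at 4S, and 6 of 6 at 10S. PAX1 and MEOX2 were at 0 over all cells at 4S too, so they could not be higher in the gate. Of 5 markers of caudal paraxial mesoderm, 4 were above all cells in the MEOX1 gate at both stages. The MSGN1 gate had the smallest share of its own markers above all cells, with 3 of 5 markers of caudal paraxial mesoderm at 4S and 2 of 5 at 10S. Its cells, like those of the other gates, are called by the gate and not by a tissue.

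Some gates rested on few molecules. In the MSGN1 gate 279 of 1110 cells at 4S and 470 of 1723 at 10S held exactly the minimum of 2 UMIs, and 482 and 824 cells stood 1 UMI below it. In the PAX6 gate 48 of 65 cells at 4S and 274 of 636 at 10S held a single PAX6 UMI. Cells that should lack PAX6 gave the background of such single UMIs. At 4S 3 of 267 cells with both LMO2 and TAL1, blood and vessel regulators, held one, 1.12% (0.232 to 3.25), as did 6 of 1110 cells of the MSGN1 gate, 0.541% (0.199 to 1.17), and the median depths were 9607 and 9666.5 UMIs against 9039 in the PAX6 gate. In the MEOX1 gate 2 of 472 cells at 4S held one, 0.424% (0.0514 to 1.52), and in the CHRD gate 0 of 208 (up to 1.76). The 4S share of PAX6 cells, with its interval of 1.25 to 2.05, thus lay above the interval of the MSGN1 background and overlapped those of the other 3. At 10S the 4 backgrounds lay between 0.840% and 1.16%, against 7.34%. Between 2.45% and 22.7% of the cells of a gate also passed another gate.

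The libraries held 37370837 UMIs at 4S and 64453991 at 10S, and 11 cell barcodes occurred in both. The median share of UMIs from the 13 mitochondrial genes was 2.43% per cell at 4S and 4.34% at 10S, and the highest was 5.99% and 6.99%. Of 21328 genes, 8937 stood in the files by identifier only and are left unnamed here. A gene was measured where its mean CPM of both stages was at least 20 and both sums together held at least 100 UMIs, so that a gene near 0 at one stage entered only through the other.

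Over all cells few of the measured genes were past 2-fold between the trunk at 4S and at 10S, with HOXB9, HES5 and HOXA7 among the highest and AGRP, NPY, KDR and MESP1 among the lowest. Of 4679 measured genes 41 were at least 2-fold higher at 10S (0.876%) and 48 at least 2-fold lower (1.03%), while 94.1% lay within 1.5-fold and the median log2 ratio was -0.05. With a minimum of 20 UMIs and no CPM minimum, 806 of 13733 genes were higher and 628 lower. HOXB9 stood highest among the measured genes with a symbol, and AGRP lowest. In such sums fewer cells of a type and less RNA per cell cannot be told apart.

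HOXB9, a Hox gene of the thoracic and lumbar trunk, had 2.78 CPM at 4S and 74.4 CPM at 10S, and was 26.7-fold higher (22.0 to 32.8). HOXA7 had 77.3 CPM at 4S and 727 CPM at 10S and was 9.40-fold higher (9.05 to 9.76), while HOXD8 had 8.32 and 40.9 CPM and was 4.91-fold higher. These 3 of the 10 highest genes were Hox genes. HES5, a Notch target of neural progenitors, had 7.39 CPM at 4S and 96.1 CPM at 10S, 13.0-fold higher (11.5 to 14.7), and 3288 of its 6195 UMIs at 10S came from PAX6 cells. GREB1, known as an oestrogen-induced gene, had 11.5 CPM at 4S and 109 CPM at 10S, 9.44-fold higher (8.56 to 10.4), and within the gates it was measured in MSGN1 and PAX6 cells. The remaining genes of the upper 10 were the membrane-binding annexin ANXA2 (17.0 and 77.5 CPM), LYPD6B (8.21 and 35.2 CPM), the nuclear receptor NR2F2 (17.7 and 59.7 CPM), GLIPR2 (17.5 and 58.5 CPM) and the mitochondrial ND6 (1249 and 3872 CPM), all between 3.10-fold and 4.56-fold higher.

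AGRP, which in the adult encodes an appetite peptide of the hypothalamus, had 194 CPM at 4S and 1.30 CPM at 10S, and was 149-fold lower (120.2 to 187), the largest ratio in either direction among the measured genes. NPY, a neuropeptide also known from that system, had 142 CPM at 4S and 15.3 CPM at 10S and was 9.29-fold lower (8.68 to 9.95). Both were highest in MEOX1 cells among the gates. KDR, the VEGF receptor of vessel precursors, had 62.5 CPM at 4S and 11.8 CPM at 10S and was 5.29-fold lower (4.87 to 5.74). MESP1, a factor of early and presomitic mesoderm, had 96.0 CPM at 4S and 23.3 CPM at 10S and was 4.12-fold lower (3.88 to 4.38). The other genes of the lower 10 were the calcium channel subunit CACNG3 (6.35-fold lower), NOXO1 (4.85-fold lower), AMN1 (3.73-fold lower), the lipid phosphatase PLPP1 (3.40-fold lower), the ephrin EFNB2 (3.37-fold lower) and the metallothionein MT4 (3.36-fold lower).

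**Figure D2:**
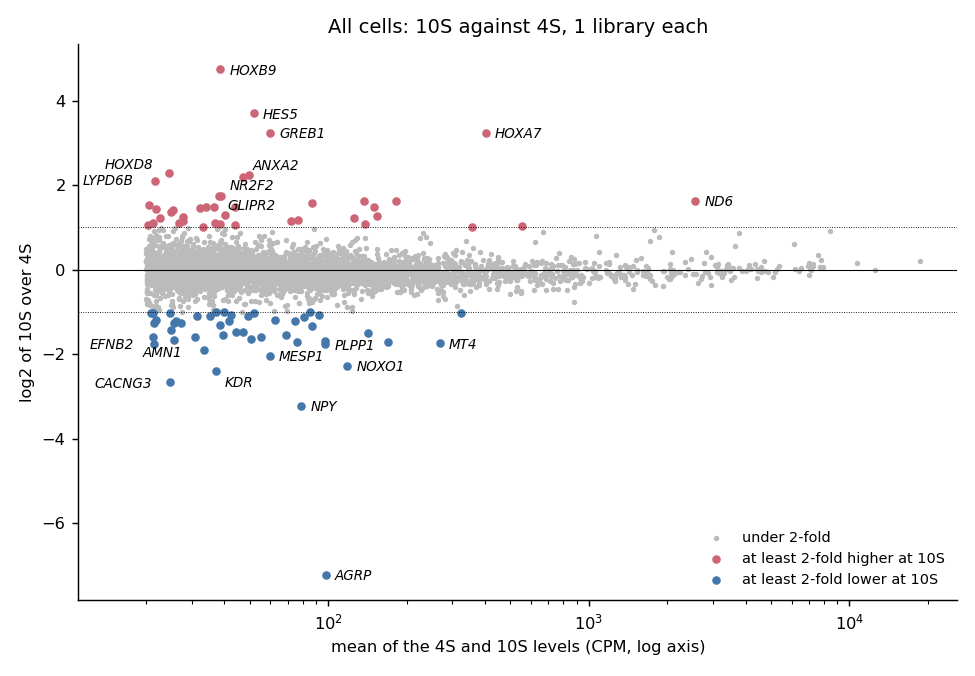
Each point is 1 of the 4679 genes measured over all cells, with the mean of its 4S and 10S levels in CPM on a log x axis and its log2 ratio of 10S over 4S on the y axis. Red points are at least 2-fold higher at 10S, blue points at least 2-fold lower, grey points under 2-fold, dotted lines mark 2-fold, and the labels name the 10 highest and 10 lowest genes with a symbol, from HOXB9 (2.78 and 74.4 CPM) to AGRP (194 and 1.30 CPM).

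The calls over all cells differed in how far the gates shared them. Of the 41 genes higher over all cells, 4 were past 2-fold in all 4 gates, 7 in 3 gates, 15 in 2, 13 in 1 and 2 in none. Of the 48 genes lower over all cells, none was past 2-fold in all 4 gates, 6 were in 3, 21 in 2, 18 in 1 and 3 in none. The 2 higher genes in no gate were GLI2, a transcription factor of the hedgehog pathway, and the keratin KRT7, both named after their values were seen. GLI2 was 1.39-fold to 1.94-fold higher in each of the gates, below the 2-fold line. The 3 lower ones, which were measured in no gate at all, were the apolipoprotein APOC3 and the blood and vessel genes EGFL7 and TAL1. Cells that passed no gate, a set formed after the results were seen, numbered 2288 at 4S and 5071 at 10S, and of their 4672 measured genes 49 were higher (1.05%) and 51 lower (1.09%).

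Across the gates, 3427 genes were measured in all 4, and 4 of them were at least 2-fold higher in every gate (0.117%) while 0 were lower in every gate (0%). The 4 were the Hox genes HOXA7, HOXB8 and HOXA4 and the mitochondrial gene ND6. A further 3 genes were higher in 3 of the gates and 7 lower in 3, and 16 and 15 were so in 2. Past 2-fold in 1 gate and under 1.5-fold in the other 3 were 48 genes (1.4%), most of them in the gates with the fewest cells at 4S: 22 in the PAX6 gate, 21 in the CHRD gate, 3 in the MEOX1 gate and 2 in the MSGN1 gate. The 48 became 29 with cells thinned to 2500 UMIs, 152 with gates on thinned counts, 154 with stricter gates, 14 with genes of at least 50 CPM and 485 with a minimum of 20 UMIs and no CPM minimum. With genes of at least 50 CPM the 4 shared genes became 1, and with a minimum of 20 UMIs and no CPM minimum they became 18 higher and 12 lower.

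**Figure D3:**
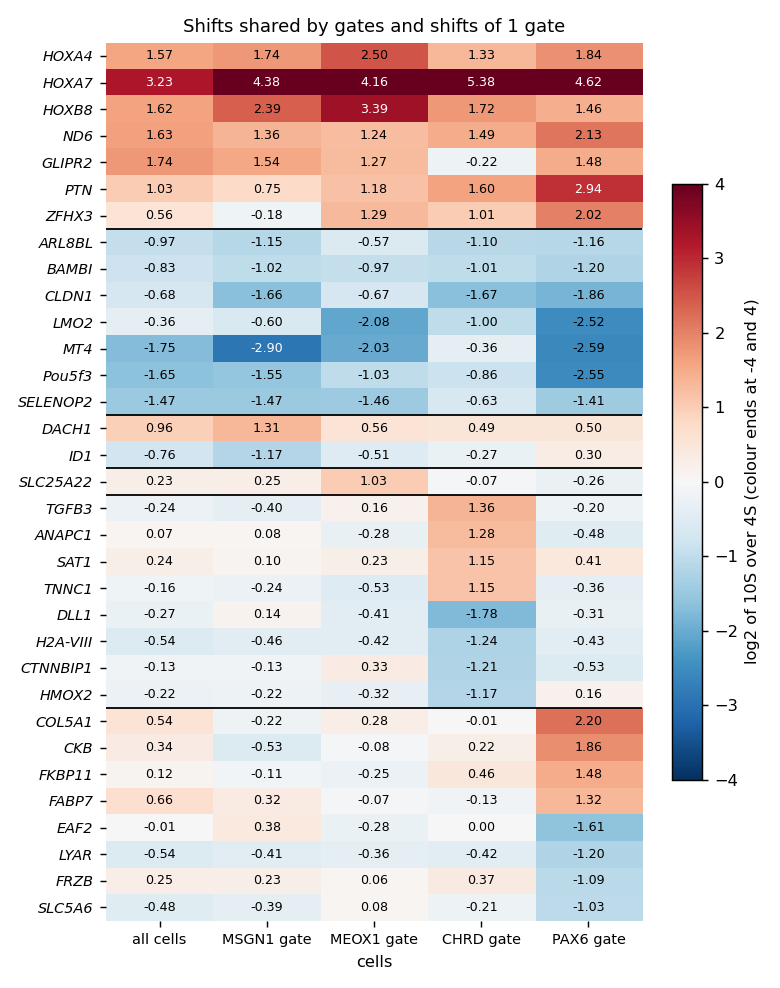
Log2 ratio of CPM at 10S over 4S, printed in each cell and coloured from -4 (blue) to 4 (red), with genes down the y axis and all cells and the 4 gates along the x axis. From the top, black lines part the genes higher in 3 or 4 gates, those lower in 3 gates, all measured in all 4, and up to 4 named genes in each direction past 2-fold in 1 gate and under 1.5-fold in the other 3, in the order MSGN1, MEOX1, CHRD and PAX6. HOXA7, HOXB8, HOXA4 and ND6 are red in all 4 gates.

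HOXA7, a Hox gene of the thoracic trunk, differed most of the 4 in every gate. It had 29.4 CPM at 4S and 615 CPM at 10S in MSGN1 cells, 20.9-fold higher (18.7 to 23.4), and 3.12 CPM at 4S and 55.6 CPM at 10S in MEOX1 cells, 17.8-fold higher (10.3 to 33.7). In CHRD cells it had 6.10 CPM at 4S and 254 CPM at 10S, 41.6-fold higher (21.7 to 91.5), from 9 UMIs at 4S, and in PAX6 cells 20.0 CPM at 4S and 492 CPM at 10S, 24.6-fold higher (14.1 to 47.7), from 12 UMIs at 4S. The 4 gates thus had the same direction at levels that differed by an order of magnitude at 10S, lowest in MEOX1 cells and highest in MSGN1 cells. HOXB8, its neighbour in paralogue number, was lowest in MEOX1 cells too, with 3.84 CPM at 4S and 40.1 CPM at 10S, 10.5-fold higher (6.34 to 18.5), and had 80.7 and 423 CPM in MSGN1, 71.9 and 237 CPM in CHRD and 43.3 and 119 CPM in PAX6 cells. HOXA4, of the neck, had 60.4 and 202 CPM in MSGN1 cells, 13.2 and 74.8 CPM in MEOX1 cells, 37.98 and 95.6 CPM in CHRD cells and 31.6 and 113 CPM in PAX6 cells, between 2.52-fold and 5.67-fold higher. HOXA4 and HOXA7 were past 2-fold in every gate under every alternative that gave a value, and HOXB8 in all but 1, the PAX6 gate with thinned cells.

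The Hox list moved in every gate. Of 37 Hox genes found, 15 were measured over all cells and 9 of these were higher, with a median log2 ratio of 1.48 against -0.05 for all measured genes. In the MSGN1 gate 9 of 15 were higher, beside 1.35% of all measured genes in that gate, in the MEOX1 gate 7 of 10 (1.32%), in the CHRD gate 4 of 7 (1.92%) and in the PAX6 gate 10 of 12 (2.95%). The medians were 1.67, 1.36, 1.33 and 1.64. HOXB1, of the most anterior group among them, was the only Hox gene called lower in any of these sets of cells. It had 292 CPM at 4S and 145 CPM at 10S in CHRD cells, 2.01-fold lower (1.72 to 2.35). In the other gates and over all cells it was lower by less than 2-fold. Its call in CHRD cells held under 7 of 13 alternatives, among them those on the CPM and UMI minimum, which cannot change a ratio.

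The higher-numbered paralogue groups differed more than the lower, in a split of the list made after the values were seen. Over all cells the 16 genes of groups 1 to 6 summed to 540 CPM at 4S and 728 CPM at 10S, and the 9 genes of groups 7 to 9 to 288 and 1425 CPM. In the MSGN1 gate the higher groups summed to 210 and 1415 CPM, in the CHRD gate to 140 and 657 CPM, in the PAX6 gate to 135 and 974 CPM, and in the MEOX1 gate to 12.5 and 141 CPM. MEOX1 cells were thus the poorest of the 4 gates in these genes at both stages. None of the 12 genes of groups 10 to 13 was measured anywhere, and their sum over all cells was 4.07 CPM at 4S and 6.27 CPM at 10S.

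HOXB9 showed the same split by gate. It had 7 UMIs at 4S and 691 at 10S in MSGN1 cells, or 0.628 and 51.1 CPM, and was 81.3-fold higher (39.3 to 203). In CHRD cells it had 3.39 and 54.9 CPM, 16.2-fold higher (6.71 to 51.0). In PAX6 cells it had 0 UMIs at 4S and 55.8 CPM at 10S, at least 11.2-fold higher with the 4S sum set at its floor of 3 counts. In MEOX1 cells it was not measured, with 0 UMIs at 4S and 2.77 CPM at 10S. HOXC8 and HOXC9, named after their values were seen and both under 20 CPM on average, had 4 and 9 UMIs over all cells at 4S and 1332 and 1160 at 10S. HOXC8 thus went from 0.107 to 20.7 CPM, 193-fold higher (75.2 to 709.7), and HOXC9 from 0.241 to 18.0 CPM, 74.7-fold higher (39.2 to 164).

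The genes of the middle groups parted the gates. HOXB5 had 50.3 and 49.9 CPM at 4S and 10S in MSGN1 cells and 15.8 and 41.8 CPM in MEOX1 cells, 2.64-fold higher (2.02 to 3.49). HOXB4 had 62.1 and 115 CPM in MSGN1 cells, under 2-fold, and 20.6 and 51.3 CPM in MEOX1 and 13.3 and 47.4 CPM in PAX6 cells, both past it. HOXB7 had 58.3 and 280.4 CPM in PAX6 cells, 4.81-fold higher (3.44 to 6.94), and 57.6 and 102 CPM in CHRD cells, under 2-fold. HOXA9 had the smallest ratio of the measured genes of groups 7 to 9 over all cells, with 28.4 CPM at 4S and 43.9 CPM at 10S over all cells and 22.6 and 28.2 CPM in MSGN1 cells, neither past 2-fold. HOXB1 and HOXB2, at the other end of the cluster, were lower at 10S in every gate where they were measured, with HOXB2 under 2-fold throughout.

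**Figure D4:**
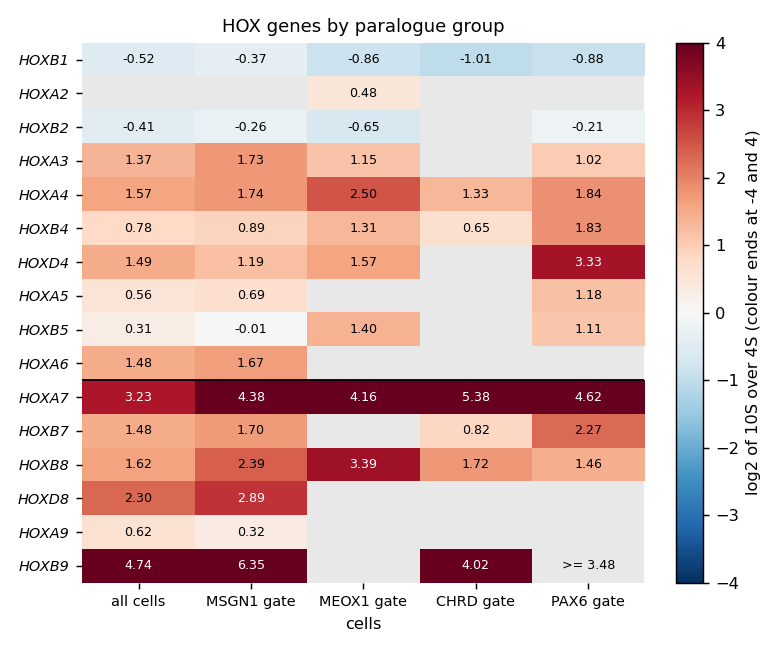
Log2 ratio of CPM at 10S over 4S of the Hox genes measured in at least 1 set of cells, printed in each cell and coloured from -4 (blue) to 4 (red), with genes in order of paralogue group down the y axis and all cells and the 4 gates along the x axis. Grey marks a gene that was not measured there, and the black line parts groups 1 to 6 from groups 7 to 9. HOXB9 in PAX6 cells, with 0 UMIs at 4S, carries a lower bound, and every measured gene below the line has a ratio above 0.

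ND6, a subunit of complex I encoded by mitochondrial DNA, was the shared gene outside the Hox clusters. It had 1403 CPM at 4S and 3611 CPM at 10S in MSGN1 cells, 1714 and 4048 CPM in MEOX1 cells, 1881 and 5295 CPM in CHRD cells and 1159 and 5075 CPM in PAX6 cells, between 2.36-fold and 4.38-fold higher. All 13 mitochondrial genes were above 0 in log2 ratio over all cells, with a median of 0.77, and ND6 alone of them passed 2-fold there. The medians in the gates were 0.82, 0.75, 0.83 and 0.93 for MSGN1, MEOX1, CHRD and PAX6 cells. In PAX6 cells 5 of the 13 were past 2-fold, and in each of the other gates ND6 alone. Of 73 measured nuclear genes of the respiratory chain none was called over all cells, and their median was -0.20. The share of mitochondrial UMIs, 2.52% of all UMIs at 4S and 4.39% at 10S, is the sum of these same 13 genes. It is also read as a sign of cell quality, and the part of cell quality in these values was not tested. With cells of at most 6% mitochondrial UMIs, an alternative chosen after the data were seen, the median was 0.71 and ND6 was 2.91-fold higher.

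Among the genes measured in all 4 gates, PTN, ZFHX3 and GLIPR2 were higher in 3 of them. PTN, a heparin-binding growth factor, had 1252 CPM at 4S and 2835 CPM at 10S in MEOX1 cells, 2.26-fold higher (2.20 to 2.33), 76.0 and 229.6 CPM in CHRD cells and 118 and 904 CPM in PAX6 cells, where it was 7.65-fold higher (6.05 to 9.81). In MSGN1 cells it was also higher but under 2-fold, with 587 and 987 CPM. ZFHX3, a large zinc finger and homeobox factor, was higher in the same 3 gates, by 2.02-fold to 4.05-fold, and had 35.6 and 31.4 CPM in MSGN1 cells. GLIPR2 was higher in MSGN1, MEOX1 and PAX6 cells, by 2.41-fold to 2.90-fold, and had 44.1 and 37.9 CPM in CHRD cells.

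Among the genes measured in all 4 gates, the 7 lower in 3 of them were ARL8BL, BAMBI, CLDN1, LMO2, MT4, Pou5f3 and SELENOP2. Pou5f3, the chick gene related to the pluripotency factor OCT4, had 78.1 CPM at 4S and 26.7 CPM at 10S in MSGN1 cells, 2.93-fold lower (2.58 to 3.32), and 112 and 19.1 CPM in PAX6 cells, 5.85-fold lower (4.22 to 8.07). MT4, a metallothionein that binds zinc and copper, had 256 and 34.2 CPM in MSGN1, 166 and 40.9 CPM in MEOX1 and 338 and 56.0 CPM in PAX6 cells, and 116 and 90.1 CPM in CHRD cells, where it was under 2-fold. CLDN1, a tight junction protein of epithelia, was 3.17-fold lower in MSGN1, 3.17-fold lower in CHRD and 3.64-fold lower in PAX6 cells, and SELENOP2, a selenoprotein, was between 2.66-fold and 2.78-fold lower in MSGN1, MEOX1 and PAX6 cells. BAMBI, a decoy receptor that damps BMP and TGF-beta signals, and ARL8BL were lower in MSGN1, CHRD and PAX6 cells, by 2.02-fold to 2.30-fold and by 2.15-fold to 2.23-fold. LMO2, a blood and vessel regulator, was 4.23-fold lower in MEOX1, 2-fold lower in CHRD and 5.75-fold lower in PAX6 cells. In CHRD cells LMO2 was past 2-fold under only 3 of 13 alternatives, with a log2 ratio from -1.23 to -0.28, BAMBI under 7 and ZFHX3 under 8. Each of these counts takes in the alternatives on the CPM and UMI minimum, which cannot change a ratio. In MSGN1 cells BAMBI was past it under 8, and the values of ARL8BL and BAMBI in PAX6 cells turned direction under 1 and 2 of them.

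The MSGN1 gate, with 11143637 UMIs at 4S, was the deepest of the 4. Of its 4586 measured genes 62 were higher at 10S (1.35%) and 65 lower (1.42%). Hox genes and FGF ligands stood among the higher ones, and retinoic acid genes, AGRP, NPY and the lateral plate factors GATA2 and GATA5 among the lower. By a rule added after the values were seen, the 6 genes at each end of each gate are given. In MSGN1 cells the upper 6 were HOXB9, GREB1, HOXA7, HOXD8, LYPD6B and HOXB8, and the lower 6 AGRP, ALDH1A2, VRTN, PVALB, NPY and MT4.

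GREB1 had 4.67 CPM at 4S and 99.7 CPM at 10S in MSGN1 cells and was 21.4-fold higher (16.2 to 28.7). LYPD6B, whose family includes modulators of acetylcholine receptors, had 5.83 and 42.8 CPM, 7.34-fold higher (5.67 to 9.64), and HOXD8 had 5.56 and 41.3 CPM, 7.41-fold higher (5.70 to 9.80). HOXD8 and LYPD6B were measured in no other gate. At the lower end AGRP had 3024 UMIs at 4S and 12 at 10S, or 271 and 0.887 CPM, and was 306-fold lower (175 to 593). ALDH1A2, the main enzyme of retinoic acid synthesis in the embryo, had 445 CPM at 4S and 27.3 CPM at 10S and was 16.3-fold lower (14.7 to 18.2). In MEOX1 cells ALDH1A2, which is known to be made in somites, had 850.2 and 414 CPM, 2.05-fold lower (1.96 to 2.15). VRTN, a gene tied to vertebral number in pigs, had 37.5 CPM at 4S and 2.81 CPM at 10S in MSGN1 cells, 13.4-fold lower (9.57 to 19.1), and the calcium buffer PVALB had 44.1 and 3.33 CPM, 13.2-fold lower (9.75 to 18.4).

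FGF ligands were higher in MSGN1 cells. All 4 measured ligands of the 10 in the list were above 0 in log2 ratio and 3 were past 2-fold. FGF8, which keeps presomitic mesoderm undifferentiated, had 22.3 CPM at 4S and 62.7 CPM at 10S, 2.82-fold higher (2.44 to 3.26). FGF18 had 45.8 and 162 CPM, 3.55-fold higher (3.22 to 3.92), and FGF10 16.9 and 70.6 CPM, 4.18-fold higher (3.58 to 4.92). FGF19, the fourth, differed by 1.04-fold (0.967 to 1.12). Among 9 measured receptors, targets and feedback inhibitors IL17RD, an inhibitor of FGF signalling, was 3.15-fold higher and the receptor FGFR3 was 2.23-fold lower, with the rest under 2-fold and a median log2 ratio of 0.15.

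The retinoic acid list moved the other way in the same gate, with 3 of 5 measured genes lower and a median of -1.63 against -0.05 for all measured genes. Beside ALDH1A2 these were STRA6, the receptor that takes up retinol from its carrier, with 207 CPM at 4S and 67.0 CPM at 10S, 3.09-fold lower (2.86 to 3.34), and RDH10, which makes retinal from retinol, with 86.1 and 13.4 CPM, 6.44-fold lower (5.49 to 7.59). Of the BMP list 3 of 10 were lower, the target genes ID1 (1067 and 476 CPM) and ID2 (512 and 249 CPM) and the decoy BAMBI (118 and 58.0 CPM), with a median of -0.28. WNT8A, a ligand of the caudal streak, had 43.7 and 15.2 CPM, 2.87-fold lower (2.43 to 3.39). The WNT target TCF7 was 2.05-fold lower and TNFRSF19 was 4.90-fold higher, of 8 measured targets and antagonists.

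TBXT, the brachyury factor of streak and notochord, had 470.3 CPM at 4S and 234 CPM at 10S in MSGN1 cells, 2.01-fold lower (1.92 to 2.10), a value that was past 2-fold under 7 of 13 alternatives. MESP1 had 111 and 20.4 CPM, 5.42-fold lower (4.75 to 6.20). The lateral plate factors GATA2 and GATA5 were lower as well, 2 of 3 measured genes of that list, and the summed level of all 15 lateral plate genes found was 284 CPM at 4S and 102 CPM at 10S. The growth regulators HMGA2 and MYCN were higher, 2 of 10 measured genes of their list, beside 1.35% of all measured genes in this gate. They had 14.99 and 30.6 CPM and 43.7 and 91.6 CPM. HMGA2 was past 2-fold under 11 of 13 alternatives and MYCN under 10, with log2 ratios down to 0.52 and 0.84. DACH1, a transcription cofactor, was the only gene higher in MSGN1 cells and under 1.5-fold in the other 3 gates, with 59.0 and 147 CPM, 2.49-fold higher (2.28 to 2.72). ID1 was its only counterpart among the lower genes.

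Levels of other cell types' markers moved in the MSGN1 gate too. Beside the lateral plate sum, the 9 surface ectoderm markers found summed to 167 CPM at 4S and 73.4 CPM at 10S, and the 10 blood and vessel markers to 158 and 77.6 CPM. EPCAM alone held 132 and 51.6 CPM of the surface ectoderm sum. The part of these cell types in the genes that were lower was not tested.

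In the MEOX1 gate 62 of 4689 measured genes were higher at 10S (1.32%) and 65 lower (1.39%). Hox genes of the middle groups, MNX1 and FAT4 stood at the upper end, and AGRP, NPY, POMC and genes of the NODAL and retinoic acid lists at the lower. The upper 6 were MNX1, HOXA7, HOXB8, FAT4, HOXA4 and RFFL, and the lower 6 AGRP, CER1, POMC, NEFM, NPY and PVALB.

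MNX1, a homeobox factor known from motor neurons and notochord, had 7 UMIs at 4S and 381 at 10S in MEOX1 cells, or 1.68 and 47.9 CPM, and was 28.5-fold higher (13.7 to 71.5). It was also higher in CHRD cells, with 87.5 and 229.6 CPM, 2.62-fold higher (2.15 to 3.22). FAT4, a large cadherin, had 4.08 and 38.2 CPM in MEOX1 cells, 9.37-fold higher (5.76 to 16.3), and RFFL, a ubiquitin ligase, 10.3 and 51.1 CPM, 4.95-fold higher (3.61 to 6.95). NR2F2, a nuclear receptor of mesoderm, had 86.4 and 219 CPM, 2.54-fold higher (2.26 to 2.85).

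AGRP was the gene with the largest ratio of this gate, with 1971 UMIs at 4S and 9 at 10S, 418-fold lower (219.6 to 915). CER1, a secreted antagonist of NODAL, BMP and WNT, had 74.1 CPM at 4S and 1.26 CPM at 10S, 58.9-fold lower (31.6 to 124). NPY had 1099 CPM at 4S and 86.6 CPM at 10S, 12.7-fold lower (11.7 to 13.8), and POMC, the precursor of melanocortin peptides, 126 and 8.30 CPM, 15.2-fold lower (11.8 to 20.0). POMC was not lower in CHRD cells, where it had 705 and 853 CPM, the highest level of any gate at either stage. NEFM, a neurofilament, had 62.6 and 4.40 CPM in MEOX1 cells and was 14.2-fold lower (9.97 to 20.9).

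Of the NODAL list the co-receptor CFC1 and the ligand GDF3 were lower in MEOX1 cells. CFC1 had 80.4 CPM at 4S and 21.9 CPM at 10S, 3.67-fold lower (3.05 to 4.44). Members of the list were lower in other gates too, with CFC1 at 180.2 and 49.7 CPM in MSGN1 cells and LEFTY1, a NODAL antagonist of the midline, at 124 and 47.8 CPM in CHRD cells. In no population was a measured member of the list above 0 in log2 ratio.

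Retinoic acid genes in MEOX1 cells were ALDH1A2, given above, and the reductase DHRS3, with 69.3 and 27.9 CPM, 2.48-fold lower (2.08 to 2.97), 2 of 7 measured. RDH10, lower in MSGN1 cells, had 325 CPM at 4S and 319 CPM at 10S in MEOX1 cells. FGF18 and FGF10 were higher, with 25.7 and 69.2 CPM and 10.8 and 32.3 CPM, and FGF19 was lower, with 40.8 and 12.7 CPM. RIPPLY2, which ends the segmentation programme at the somite border, had 300.1 and 98.6 CPM, 3.04-fold lower (2.78 to 3.33), 1 of 7 measured genes of somites and segmentation, whose median was -0.32. SLC25A22, a mitochondrial glutamate carrier, was the gene with a symbol that was higher in MEOX1 cells and under 1.5-fold elsewhere, with 49.9 and 102 CPM, 2.04-fold higher (1.75 to 2.38). Markers of other cell types moved in this gate as well. The 10 blood and vessel markers found summed to 151 CPM at 4S and 87.3 CPM at 10S, the 15 of lateral plate to 176 and 114 CPM, the 7 of endoderm to 80.4 and 43.5 CPM and the 5 of caudal paraxial mesoderm to 849 and 506 CPM. The 9 of surface ectoderm went from 66.7 to 94.3 CPM, of which EPCAM alone held 56.6 and 84.6 CPM. The part of these cell types in the genes that were lower was not tested. Some values in MEOX1 cells were not past 2-fold under every alternative, among them the higher ones of FGF18, HOXA3 and ETS1 and the lower ones of Pou5f3, SELENOP2 and ALDH1A2.

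The CHRD gate gave 71 of 3699 measured genes higher at 10S (1.92%) and 39 lower (1.05%). Hox genes, the annexin ANXA2, the calcium-binding S100A6 and somatostatin were higher, and VRTN, the Notch ligand DLL1 and RDH10 were lower. The upper 6 were HOXA7, HOXB9, ANXA2, GLRX, S100A6 and SST, and the lower 6 VRTN, DLL1, CNTN2, PDGFA, DRAXIN and RDH10.

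ANXA2 had 11 UMIs at 4S and 162 at 10S, or 7.46 and 89.0 CPM, and was 11.9-fold higher (6.49 to 24.4). GLRX, a glutaredoxin, had 11.5 and 73.1 CPM, 6.34-fold higher (3.81 to 11.2), and lay under 1 CPM in MSGN1 and MEOX1 cells at both stages. S100A6 had 59.0 and 340.0 CPM, 5.76-fold higher (4.60 to 7.30). SST, the somatostatin precursor, had 135 CPM at 4S and 766 CPM at 10S in CHRD cells, 5.67-fold higher (4.89 to 6.62), and 45.1 and 7.55 CPM in MEOX1 cells, where it was lower.

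DLL1, a Notch ligand, had 77.3 CPM at 4S and 22.5 CPM at 10S in CHRD cells, 3.43-fold lower (2.38 to 5.03), and 400.0 and 442 CPM in MSGN1 cells, where the stages differed by 1.11-fold. Among the 4 gates it was past 2-fold in CHRD cells alone. It was also lower, by less than 1.5-fold, in MEOX1 cells, with 387 and 290 CPM, and in PAX6 cells, with 68.3 and 55.3 CPM. The adhesion molecule CNTN2 had 50.9 and 14.8 CPM, the growth factor PDGFA 88.2 and 26.9 CPM and the guidance factor DRAXIN 63.8 and 19.8 CPM, each between 3.22-fold and 3.43-fold lower. VRTN had 97.0 and 21.4 CPM, 4.53-fold lower (3.16 to 6.63), and RDH10 94.9 and 29.7 CPM, 3.20-fold lower (2.32 to 4.47).

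The notochord list itself was nearly level. Of its 9 measured genes in CHRD cells the metalloproteinase inhibitor TIMP3 was higher, with 115 and 261 CPM, and LEFTY1 lower, and the median log2 ratio was -0.06, that of all measured genes being -0.06 as well. In CHRD cells TIMP3 was past 2-fold under 11 of 13 alternatives, with a log2 ratio down to 0.43. TBXT had 2072 and 1862 CPM there, 1.11-fold apart, while it was lower in MSGN1 and PAX6 cells. Further genes were past 2-fold in CHRD cells and under 1.5-fold in the other 3 gates, 9 higher and 12 lower. TGFB3, a ligand of the TGF-beta family, had 19.0 and 48.9 CPM, ANAPC1, a subunit of the anaphase-promoting complex, 43.4 and 105 CPM, the polyamine enzyme SAT1 80.0 and 177 CPM and the troponin TNNC1 216 and 479 CPM. Among the lower were DLL1, the histone gene H2A-VIII with 242 and 102 CPM, CTNNBIP1, an inhibitor of beta-catenin, with 84.1 and 36.3 CPM, and the haem oxygenase HMOX2 with 49.5 and 22.0 CPM. Reads of a histone gene may be split among near-identical copies.

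This gate had 1474477 UMIs at 4S, and with cells thinned to 2500 UMIs it gave 34 genes higher and 13 lower. FGF20 was the called one of 2 measured FGF ligands, with 52.9 and 17.6 CPM, and lower. Of 5 measured collagens and laminins the basement membrane collagen COL4A1 was higher, with 96.3 and 218 CPM, and COL1A2 lower, with 57.6 and 22.0 CPM. The blood and vessel markers summed to 122 CPM at 4S and 54.9 CPM at 10S in CHRD cells, and those of endoderm to 546 and 755 CPM. The highest of the 7 endoderm markers alone held 332 and 576 CPM of that sum. FOXA2, counted above as a notochord marker, is also on the endoderm list but was not that highest marker. In CHRD cells the log2 ratio of FOXA2 was -0.06, and that of the highest marker was 0.80. The part of these cell types in the called genes was not tested.

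The PAX6 gate held the most called genes, 136 of 4617 measured higher at 10S (2.95%) and 83 lower (1.8%). Hox genes and genes of the neural tube list were higher, and Pou5f3, LMO2, TBXT and CDX2 were lower. These counts depend on the scaling. The median log2 ratio of this gate was -0.11 with CPM, 0.04 with size factors and 0.05 with TMM factors, and the genes higher and lower were then 200 and 55 and 200 and 53, so that 78.4% and 79.1% of the called genes were higher against 62.1% with CPM. At 4S the gate rested on 65 cells and 600593 UMIs, of which 48 cells held a single PAX6 UMI.

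The upper 6 were HOXB9, IRX1, HOXA7, WNT4, GREB1 and HES5, and the lower 6 NOXO1, FABP3, CLEC19A, MT4, Pou5f3 and LMO2. IRX1, a homeobox factor of neural patterning, had 4 UMIs at 4S and 874 at 10S, or 6.66 and 172 CPM, and was 25.8-fold higher (10.0 to 94.9). WNT4, a ligand of the spinal cord, had 14.99 and 222 CPM, 14.8-fold higher (7.78 to 32.5). HES5 had 53.3 CPM at 4S and 646 CPM at 10S, 12.1-fold higher (8.58 to 17.8), the highest level of any gate at both stages. GREB1 rested on 2 UMIs at 4S against 218 at 10S, and its ratio was 12.9 with an interval of 3.52 to 107.

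Of the 17 neural tube genes 5 were measured in PAX6 cells and 3 were higher, with a median log2 ratio of 1.54. SOX1, a factor of committed neural progenitors, had 13.3 CPM at 4S and 118 CPM at 10S, 8.89-fold higher (4.48 to 20.7). SOX21 had 14.99 and 43.6 CPM, 2.91-fold higher (1.51 to 6.45), and DBX2, of the middle of the dorsoventral axis, 3 UMIs at 4S against 255 at 10S, with a ratio of 10.0 and an interval of 3.40 to 49.0. In the hedgehog list GLI3 and CDON, a repressor and a co-receptor of the pathway, were higher, 2 of 3 measured, with 16.7 and 46.8 CPM and 18.3 and 47.0 CPM. SFRP1, a WNT antagonist, had 9.99 and 45.6 CPM, SP8, a factor downstream of WNT and FGF, 13.3 and 84.4 CPM, and CHRD 8.33 and 34.0 CPM from 5 UMIs at 4S. The CHRD value was past 2-fold under 10 of 13 alternatives, with a log2 ratio down to 0.70. Of the CHRD gate, 0 of 208 cells at 4S and 3 of 326 at 10S were also in the PAX6 gate. Their part in the CHRD value was not tested. ID3, a BMP target, had 46.6 and 103 CPM.

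Of 6 measured genes of the list of caudal progenitors and primitive streak, 2 were lower in PAX6 cells, TBXT and CDX2, and SP8, given above, was higher, with a median log2 ratio of -0.17 against -0.11 for all measured genes. TBXT had 145 CPM at 4S and 63.7 CPM at 10S, 2.27-fold lower (1.77 to 2.89), and CDX2, a caudal homeobox factor, 173 CPM at 4S and 85.3 CPM at 10S, 2.03-fold lower (1.62 to 2.52). CDX2 differed by less than 1.5-fold in each of the other 3 gates. Outside that list, NOXO1 had 148 and 14.2 CPM, 10.5-fold lower (7.59 to 14.5), FABP3 86.6 and 13.2 CPM, 6.57-fold lower (4.49 to 9.58), and CLEC19A 119.9 and 19.9 CPM, 6.04-fold lower (4.40 to 8.25). STRA6 had 249.8 and 94.2 CPM, the only called gene of 7 measured in the retinoic acid list. With at least 2 PAX6 UMIs required, the gate held 17 cells at 4S and 362 at 10S. TBXT was then 0.39 higher on the log2 scale, and FABP3, CLEC19A and KRT24 were no longer past 2-fold.

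Past 2-fold in PAX6 cells and under 1.5-fold in the other gates were 13 genes higher and 9 lower. The fibrillar collagen COL5A1 had 9.99 and 45.8 CPM, 4.59-fold higher (2.08 to 12.6), the creatine kinase CKB 81.6 and 297 CPM, 3.64-fold higher (2.74 to 4.94), the chaperone FKBP11 48.3 and 135 CPM and FABP7, a fatty acid-binding protein of neural progenitors, 316 and 789.6 CPM, 2.50-fold higher (2.16 to 2.90). Among the lower were EAF2 (74.9 and 24.6 CPM), a factor of transcription elongation, the nucleolar protein LYAR (209.8 and 91.4 CPM), the WNT antagonist FRZB (117 and 54.7 CPM) and the vitamin transporter SLC5A6 (129.9 and 63.5 CPM).

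Markers of other cell types moved strongly in this gate, as the plot of summed markers shows. The 10 blood and vessel markers found summed to 253 CPM at 4S and 58.8 CPM at 10S, the 9 of surface ectoderm to 313 and 132 CPM, the 15 of lateral plate to 128 and 42.1 CPM and the 7 of endoderm to 51.6 and 23.2 CPM. EPCAM alone held 211 and 93.6 CPM of the surface ectoderm sum. The 6 haemoglobin genes went the other way, from 8.33 to 46.6 CPM. The part of these cells in the genes that were higher or lower was not tested. Nor was the part of cells that passed the gate at 4S by a background PAX6 UMI.

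**Figure D5:**
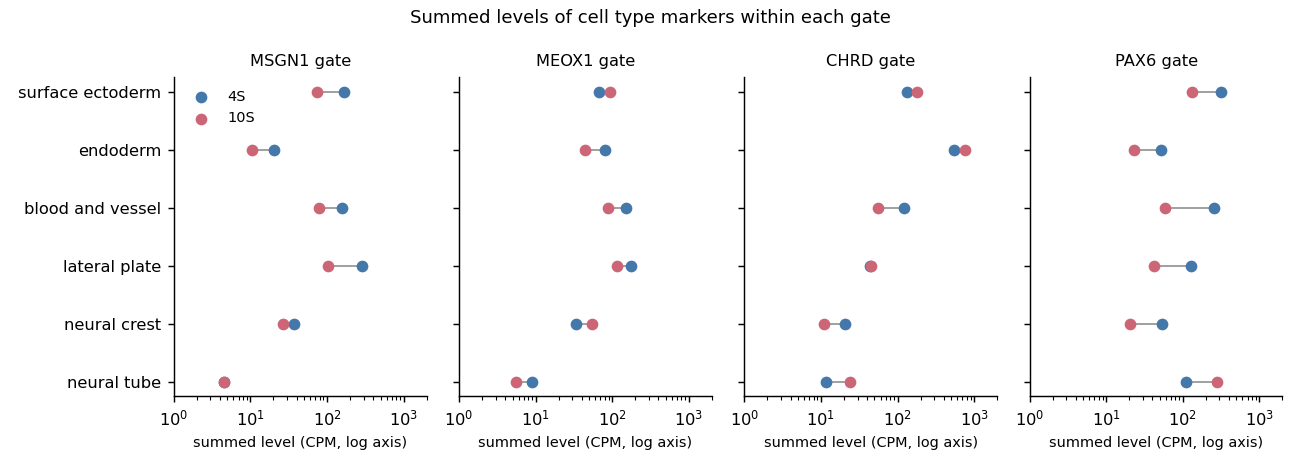
Summed CPM of cell type markers on a log x axis, in 1 panel for each gate, with marker lists of 5 other cell types and of the neural tube down the y axis. Blue points are the 4S library and red points the 10S library, joined by a grey line. In the PAX6 gate the neural tube markers stand at 112 CPM at 4S and 281 CPM at 10S, and those of blood and vessel at 253 and 58.8 CPM.

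A few genes went in opposite directions in different gates. CXCL14, a chemokine, had 31.7 CPM at 4S and 116 CPM at 10S in MEOX1 cells, 3.65-fold higher (3.04 to 4.41), and 108 CPM at 4S and 50.3 CPM at 10S in MSGN1 cells, 2.14-fold lower (1.94 to 2.35). HAPLN1, which links hyaluronan to its proteoglycans, had 85.0 and 214 CPM in MSGN1 and 76.6 and 37.9 CPM in CHRD cells, and ID2 had 512 and 249 CPM in MSGN1 and 72.6 and 228 CPM in CHRD cells. MYL4, a myosin light chain, was lower in MEOX1 cells, with 75.1 and 30.7 CPM, and higher in CHRD and PAX6 cells, with 216 and 517 CPM and 58.3 and 177 CPM. Over all cells none of these 4 genes was past 2-fold. CXCR4, a chemokine receptor, had 71.2 and 31.3 CPM in CHRD and 23.3 and 50.9 CPM in PAX6 cells, from 14 UMIs at 4S, and the keratin KRT24 29.8 and 62.6 CPM in CHRD and 181 and 56.6 CPM in PAX6 cells. SST, given above, completes the list of 7. From 7S to 13S, the other pair of libraries, only HAPLN1 and ID2 had the same direction in each of their gates.

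Over all cells the ribosomal, cell cycle and glycolysis lists stayed near the median of all measured genes, -0.05, while the stress list lay above it. None of 68 measured ribosomal protein genes was called over all cells, and their median log2 ratio was -0.01. The 33 measured genes of S phase and 39 of G2/M phase had medians of 0.03 and -0.12 over all cells with none called, and G2/M had -0.36 in CHRD cells. Of 15 measured glycolysis genes LDHA, lactate dehydrogenase, was the called one over all cells, with 13.6 and 31.5 CPM, and the list's median was 0.10. LDHA was also past 2-fold higher in MSGN1, CHRD and PAX6 cells, with log2 ratios of 1.60, 1.91 and 1.17, and was not called in MEOX1 cells. The stress and immediate early list had 10 of 10 measured genes above 0, with a median of 0.34 and 1 called, the small heat shock protein HSPB1 with 17.2 and 38.4 CPM. COL1A2, a fibrillar collagen, was lower over all cells and in MSGN1, MEOX1 and CHRD cells, with 30.2 and 12.7 CPM over all cells, 2.38-fold lower (2.18 to 2.61).

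The 7S and 13S libraries, 6 somites apart as well and not used for the calls, gave the direction of the same genes in other libraries. Over all cells 27 of the 41 higher genes (65.9%) were also higher at 13S than at 7S, against 33.0% of all measured genes, and 40 of the 48 lower genes (83.3%) were also lower, against 67.0%. In the MSGN1 gate it was 48 of 62 (77.4% against 33.8%) and 58 of 65 (89.2% against 66.2%). In the MEOX1 gate it was 29 of 62 (46.8% against 34.6%) and 55 of 65 (84.6% against 65.4%), in the CHRD gate 43 of 71 (60.6% against 36.4%) and 32 of 39 (82.1% against 63.6%), and in the PAX6 gate 62 of 136 (45.6% against 37.9%) and 64 of 83 (77.1% against 62.1%). The higher genes of MEOX1 and PAX6 cells thus had the same direction in a minority of cases, though more often than all measured genes. Their intervals, 34.0 to 59.9 and 37.0 to 54.3, took in the shares of all measured genes.

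Single genes showed what lay behind these shares. HOXB9 over all cells had 21.6 CPM at 7S and 178 CPM at 13S, so that its 4 levels stood in the order of the stages, and HOXA7 had 399 and 1059.8 CPM. AGRP had 2.49 CPM at 7S and 0.314 CPM at 13S. HES5 in PAX6 cells had 765 CPM at 7S and 249.6 CPM at 13S, so that it was highest at 7S and its order did not follow the stages. PTN, MNX1 and FAT4 in MEOX1 cells were likewise not higher at 13S than at 7S, with 3333 and 2887 CPM, 46.2 and 13.7 CPM, and 28.5 and 23.6 CPM. At 7S the minimum of 2500 UMIs removed 2012 of 7921 cells, and at 13S it removed none. The cells kept at 7S held a median of 3758 UMIs against 7431.5 at 13S, so the gates caught other shares of cells there.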

How the data were processed

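Single-cell RNA libraries of chick trunk tissue at 4 stages were read from the deposited matrix, whose values are counts of UMIs per gene and cell. Per the labels and the study's methods, the authors mapped reads to GRCg6a with Cell Ranger (version 4.0.0), counted UMIs with DropEst and filtered cells with Scanpy, with upper limits on mitochondrial share. Cells with at least 2500 UMIs were kept here. UMIs were summed over the cells of a stage, over all cells and in each gate, and expressed as CPM.

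Genes with a mean of at least 20 CPM and at least 100 UMIs over both sums were measured, and at least 2-fold counted as higher or lower. The intervals of ratios are exact Clopper-Pearson intervals on the split of UMIs between the stages, so a deeply counted gene has a narrow one. No test was run, because each stage was 1 library. A gate's own gene was left out of its measured genes, a choice made after the results were seen, as were the cells in no gate, the LMO2 and TAL1 background cells, the Hox subgroups and the 6 genes named from each end of each gate. The other genes named were the 10 highest and 10 lowest over all cells, those past 2-fold in 3 or 4 gates or in opposite directions, up to 4 in each direction past 2-fold in 1 gate and under 1.5-fold in the other 3, and members of the lists. The values of 1 listed gene are not reported here. The gates and lists were chosen with earlier results of these data known.

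The authors had removed likely doublets with Scrublet, and no doublet caller was run again. Of 13 alternatives, 2 were chosen after the data were seen: cells of at most 6% mitochondrial UMIs, and totals without mitochondrial genes. The others were median-of-ratios size factors, TMM factors from edgeR (version 4.0.16), totals without genes over 1% of a library, cells thinned to 2500 UMIs, gates on thinned counts, cells weighted equally, cells with at least 5000 UMIs, cells in 1 gate only, stricter gates, at least 50 CPM, and no CPM minimum with 20 UMIs. The code for the calls and intervals was also run on simulated sums with planted ratios well past 2-fold. These sums held counting error only, so they cannot show how far libraries or embryos vary. Python 3.11.15 with numpy 2.4.6, scipy 1.17.1, pandas 2.3.3 and matplotlib 3.10.9 and R 4.3.3 were used. No sequence is shown, since none of the identifiers matched the gene table given.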

Additional observations from a re-analysis of the deposited data

Results flagged for a closer look

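Between gates, 7 genes were past 2-fold in opposite directions from 4S to 10S, and each is given by its log2 ratio of CPM at 10S over 4S. The difference between the gates was not tested, since each stage was 1 library. CXCL14 stood at 1.87 in MEOX1 cells and -1.10 in MSGN1 cells. CXCR4 stood at -1.19 in CHRD cells and 1.13 in PAX6 cells, and in PAX6 cells it was 0.08 with cells thinned to 2500 UMIs and past 2-fold under 11 of 13 alternatives. HAPLN1 stood at -1.02 in CHRD cells and 1.33 in MSGN1 cells, and in CHRD cells it was past 2-fold under 8 of 13 alternatives, with values up to -0.85. ID2 stood at 1.65 in CHRD cells and -1.04 in MSGN1 cells, and in MSGN1 cells it was past 2-fold under 10 of 13, with values up to -0.98. KRT24 stood at 1.07 in CHRD cells and -1.68 in PAX6 cells, and in PAX6 cells it was -0.39 with stricter gates. MYL4 stood at 1.26 in CHRD cells and 1.60 in PAX6 cells against -1.29 in MEOX1 cells. SST stood at 2.50 in CHRD cells and -2.58 in MEOX1 cells. From 7S to 13S the direction was not the same for CXCL14 in MEOX1, CXCR4 in PAX6 and KRT24 in CHRD cells. Nor was it for MYL4 and SST in CHRD and MEOX1 cells. HAPLN1 and ID2 had the same direction in both of their gates.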

How the results depend on the processing

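No paired analysis was possible because each stage has 1 library and every library carries the same number. For the same reason no library could be left out. Depth limits the PAX6 and CHRD gates most, which held 600593 and 1474477 UMIs at 4S. Of 4943 values of named genes past 2-fold, taken over all alternatives, 4939 kept their direction and 4747 stayed past 2-fold. Part of this was fixed in advance. The alternatives on the CPM and UMI minimum cannot change a ratio, and those on the gates cannot change one over all cells. Those on scaling shift all ratios of a population alike, by too little to turn a value past 2-fold. The direction turned in the PAX6 gate, where the log2 ratio was 0.11 for ARL8BL and 0.35 for BAMBI with gates on thinned counts, and 1.34 for BAMBI and 0.39 for TBXT with stricter gates. At 4S the PAX6 gate held 19 cells on thinned counts and 17 cells when stricter. The cause was not tested, here and for the values below.

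With scaling by size factors the PAX6 gate had 55 genes lower and with TMM factors 53, against 83. With cells thinned to 2500 UMIs the CHRD gate had 34 genes higher and 13 lower, the PAX6 gate 83 and 38, and 29 genes were past 2-fold in 1 gate alone, against 48. With gates on thinned counts 44 genes were higher in the CHRD gate, 253 higher and 152 lower in the PAX6 gate, and 152 in 1 gate alone. The lower genes of the MEOX1 gate then had the same direction from 7S to 13S in 72.1% of cases. The gate shares were 10.2% for MSGN1, 5.32% for MEOX1, 3.83% for CHRD and 0.472% for PAX6 at 4S, and 8.32%, 5.36%, 2.90% and 4.14% at 10S.

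With cells of at least 5000 UMIs the CHRD gate had 41 genes higher, 65.7% of its lower genes had the same direction from 7S to 13S, and the shares at 10S were 21.6% for MSGN1 and 2.49% for CHRD. With cells in 1 gate only the shares were 24.7% and 17.7% for MSGN1 and 9.07% and 10.8% for MEOX1 at 4S and 10S. With stricter gates the PAX6 gate had 250 genes higher, 64.9% of its lower genes had the same direction from 7S to 13S, and 154 genes were in 1 gate alone. The shares were then 20.6% for MSGN1, 9.91% for MEOX1 and 0.422% for PAX6 at 4S, and 14.5%, 10.5%, 3.35% for CHRD and 4.18% for PAX6 at 10S.

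With at least 50 CPM the genes higher and lower were 15 and 21 over all cells, 22 and 28 in the MSGN1 gate, 18 and 21 in the MEOX1 gate, 34 and 20 in the CHRD gate and 44 and 40 in the PAX6 gate. In all 4 gates 1 was higher, and 14 were in 1 gate alone. With no CPM minimum and 20 UMIs they were 806 and 628 over all cells, 482 and 545 in the MSGN1 gate, 481 and 406 in the MEOX1 gate, 383 and 244 in the CHRD gate and 933 and 404 in the PAX6 gate. In all 4 gates 18 were higher and 12 lower, and 485 were in 1 gate alone. The lower genes then had the same direction from 7S to 13S in 71.9% of cases in the MEOX1 gate, 66.4% in the CHRD gate and 64.6% in the PAX6 gate. With cells of at most 6% mitochondrial UMIs, added after the data were seen, 1 gene was lower in all 4 gates. A total of 264 summary values stayed near their first value and 67 moved. Some of the 264 could not move, since the alternatives on the gates leave the values over all cells as they were.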

Other observations

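In the cells that passed none of the gates HOXB9 had 4.35 CPM at 4S and 98.5 CPM at 10S, 22.6-fold higher (18.4 to 28.2), and HOXA7 119.5 CPM at 4S and 939.7 CPM at 10S, 7.86-fold higher (7.55 to 8.19), the highest HOXA7 levels of any set of cells at both stages. GREB1 had 15.1 and 141 CPM, 9.36-fold higher (8.35 to 10.5), and ANXA2 24.6 and 118 CPM, 4.79-fold higher (4.37 to 5.25).

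Lower among them were AGRP, with 132 and 1.51 CPM, 87.6-fold lower (67.4 to 116), and KDR, with 81.5 and 16.0 CPM, 5.09-fold lower (4.64 to 5.60). CFC1 had 249.9 and 96.4 CPM, 2.59-fold lower (2.48 to 2.71). LMO2, a marker of blood and vessel cells, had 169 and 140.1 CPM there, under 2-fold.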
